A study of Mus musculus with 3 samples.

Results

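The genes described here are the 10 mouse genes of the PDGF system and the mesenchymal cell surface that carry the symbols Pdgfa, Pdgfb, Pdgfc, Pdgfd, Pdgfra, Pdgfrb, Thy1, Ddr2, Fap and Cspg4. They were chosen by symbol from the 54532 genes of the deposited tables, and all 10 were among the 15702 genes with at least 10 counts in at least 1 of the 3 libraries. RNA sequencing was available for MICFs, the fibroblasts cultured from infarcted hearts of Myh6-mCherry reporter mice, and for 2 populations of induced cardiomyocytes (iCMs) made from them. The GMTMS cocktail delivered Gata4, Mef2c, Tbx5, Myocd and Sall4, and the GMTMM cocktail delivered Gata4, Mef2c, Tbx5, Myocd and Mesp1. All cells came from hearts taken 5 days after myocardial infarction and spent 4 weeks in culture, and the surgery was done on mice 8 weeks old. The iCMs received virus and doxycycline at 1 μg/ml and were sorted for mCherry, which the cardiomyocyte promoter of Myh6 drives in this mouse, and 5 sorted samples per cocktail were combined into 1 library. The MICFs received no virus, and the labels give no mCherry sort for them.

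PDGF ligands are secreted dimers. PDGF-A and PDGF-C act mainly on the receptor PDGFRα, PDGF-B binds both receptors, and PDGF-D prefers PDGFRβ. PDGF-A and PDGF-B are cleaved inside the cell, whereas PDGF-C and PDGF-D are secreted in a latent form and activated by extracellular proteases. In the heart, PDGFRα marks fibroblasts, PDGFRβ marks pericytes and other mural cells and also occurs in activated fibroblasts, and PDGF-B from endothelium recruits pericytes to vessels.

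Each condition had 1 library, so no difference below has a replicate check and no p-value is given. The totals were 10624118 to 11904484 counts, and a count of 0 allows up to 3 counts, or 0.252 to 0.282 CPM (counts per 1000000 counts of the library). The delivered genes went against 1 label: in the library labelled GMTMM, Sall4 had 1060 counts and Mesp1 had 0, and GMTMS-iCMs had 1190 and 0 counts. Counts of 4 Y-linked genes summed to 0 in MICFs, 1630 in the GMTMS library and 1926 in the library labelled GMTMM. Xist was at 45.9, 31.7 and 7.72 FPKM in the same order. The sex of the animals thus differed between MICFs and each iCM library and cannot be told apart from the treatment there. Between the iCM libraries, the Y-linked genes summed to nearly the same FPKM, 31.8 and 30.7, whereas Xist differed. Whether the mix of sexes differed between them is thus not settled, and it cannot be told apart from the cocktail. The 7 fibroblast markers of the list used here were counted in every library. Their summed FPKM was 1428 in MICFs, 216 in the GMTMS library and 2751 in the library labelled GMTMM. Cardiomyocyte markers summed to 1.29, 1318 and 489 FPKM in that order, and 4 of 8 were at 0 in MICFs. MICFs were not fibroblasts alone by their RNA: 7 endothelial markers summed to 412 FPKM there and 8 macrophage markers to 9419 FPKM. The sorted libraries were mixed by their RNA as well. The same macrophage markers summed to 18195 FPKM in the GMTMS library and 8686 in the library labelled GMTMM, above the cardiomyocyte markers in each. Levels in GMTMS-iCMs below are thus those of a mixed library.

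Levels are given as FPKM, fragments per kilobase of transcript, with exact Poisson intervals in the plot of levels. The deposited FPKM were scaled by DESeq2 size factors and not by the library totals. A fold is the FPKM of 1 library divided by that of another, and its 95% interval is Clopper-Pearson. Both kinds of interval cover counting error only. Differences are on the log2 scale of FPKM that were quantile-normalized over the 3 libraries, with 1 added, and a gene is called higher or lower when its difference is over 1.

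Between GMTMS-iCMs and MICFs, both PDGF receptors, Thy1, Ddr2, Pdgfb and Pdgfd were lower and Pdgfa was higher. Pdgfc, Fap and Cspg4 stayed within a difference of 1. Thus 6 of 10 genes were lower, beside 8.69% of all 15702 genes, and 1 of 10 was higher, beside 9.00% (17.7% in either direction). Genes and lists were chosen with earlier results of these data known, so setting a count beside the background share is not a test. The median difference of the 10 genes was -1.48, and that of all genes was -0.07. In these bulk samples, fewer cells of a type and less RNA per cell cannot be told apart.

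Between the library labelled GMTMM and the same MICFs, only Pdgfa was higher and only Pdgfb was lower among the 10. The background was 6.43% of genes higher and 3.53% lower, or 9.96% in either direction, and the median difference of the 10 genes was 0.09 against -0.08 for all genes. Pdgfb passed the threshold narrowly and lay between -1.05 and -0.60 over 8 alternative scales.

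Between the iCM libraries themselves, 6 of 10 genes were lower in GMTMS-iCMs (background 9.07%) and 1, Pdgfc, was higher (background 6.11%, and 15.2% in either direction). The 6 were Pdgfd, Pdgfra, Pdgfrb, Thy1, Ddr2 and Fap. The comparisons share libraries and are not independent of each other.

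**Figure D1:**
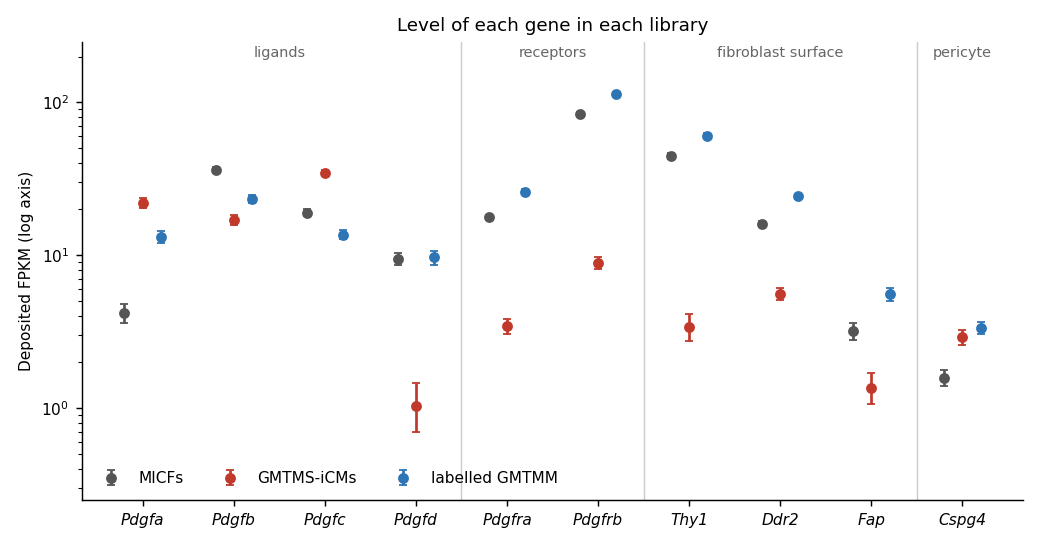
FPKM of each of the 10 genes (log axis) in MICFs, the GMTMS-iCMs and the library labelled GMTMM, 1 point per library, with exact Poisson 95% intervals of the counts. The receptors, Thy1 and Ddr2 lie lowest in GMTMS-iCMs, whereas Pdgfa and Pdgfc lie highest there.

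The ligands moved in different directions. Pdgfa (chr5:138976014-138997370 on GRCm38, minus strand), the chain of PDGF-AA, was at 4.17 FPKM in MICFs, at 22.1 in GMTMS-iCMs and at 13.2 in the library labelled GMTMM. It was lowest in MICFs and highest in GMTMS-iCMs. The fold over MICFs was 5.29 (4.49 to 6.26) in GMTMS-iCMs, with a log2 difference of 2.10, and 3.17 (2.67 to 3.77) in the library labelled GMTMM, with a difference of 1.45. Of its exon bases, 26.1% lie opposite exons of 6330403L08Rik, and how strand was handled in counting is not given in the sources used here. That neighbour had 101, 173 and 94 counts in the 3 libraries, against 187, 639 and 481 for Pdgfa.

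Pdgfb (chr15:79995874-80014977, minus strand), which endothelial cells and macrophages make, was at 36.1 FPKM in MICFs, at 17.1 in GMTMS-iCMs and at 23.4 in the library labelled GMTMM. MICFs were the highest library. The level was 2.11-fold lower (1.94 to 2.31) in GMTMS-iCMs, with a log2 difference of -1.44, and in the library labelled GMTMM 1.54-fold lower (1.43 to 1.66), with a difference of -1.02. Endothelial markers fell with it in GMTMS-iCMs, from 412 to 12.2 summed FPKM, with 7 of 7 lower (the largest differences being -5.81 for Cdh5, -5.34 for Cldn5, -5.20 for Pecam1 and -3.53 for Erg) and none at 0, and they summed to 321 in the library labelled GMTMM, where 2 of 7 (Cdh5 and Kdr) were lower. Macrophage markers summed to 18195 FPKM in the GMTMS library and 8686 in the library labelled GMTMM. Of the 8, 2 were called higher in the first (Ptprc and Itgam), 1 was called lower in the second (Csf1r) and none was at 0. The background was 9.00% of genes higher and 8.69% lower in the first, and 6.43% higher and 3.53% lower in the second. By FPKM ratio all 8 macrophage markers were higher in the GMTMS library than in MICFs, from 1.85-fold for Lyz2 to 2.97-fold for Ptprc. On the quantile-normalized scale their log2 differences ran from 0 for Lyz2 to 1.23 for Ptprc. Without quantile normalization, Cdh5, Kdr and Csf1r were within the threshold in the library labelled GMTMM, at -0.47, -0.99 and -0.45, and Itgam in GMTMS-iCMs was at 0.90 with thinned counts. The part of these cells in the level of Pdgfb was not tested.

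Pdgfc (chr3:81036416-81214040, plus strand), a latent ligand, was at 19.0 FPKM in MICFs, at 34.5 in GMTMS-iCMs and at 13.7 in the library labelled GMTMM. It was highest in GMTMS-iCMs and lowest in the library labelled GMTMM. The log2 difference between those iCM libraries was 1.20, a fold of 2.53 (2.32 to 2.75). Against MICFs the differences were 0.49 and -0.71, within the threshold.

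Pdgfd (chr9:6168584-6378850, plus strand), the other latent ligand, had 429 counts in MICFs, 30 in the GMTMS library and 356 in the library labelled GMTMM, or 9.45, 1.02 and 9.66 FPKM. GMTMS-iCMs stood apart from the other libraries. The level there was 9.23-fold lower than in MICFs (6.37 to 13.9), with a log2 difference of -2.37, the 307th lowest of 15702 genes. In the library labelled GMTMM the log2 difference from MICFs was -0.08, and it turned positive on 3 of 8 alternative scales, the highest value being 0.03.

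The summed level of the ligands changed little in comparison with their makeup. The sum was 68.7 FPKM in MICFs, 74.7 in the GMTMS library and 59.9 in the library labelled GMTMM. Pdgfb made up 52.5% of the sum in MICFs (51.0% to 54.0%), 22.9% in GMTMS-iCMs (21.4% to 24.4%) and 39.1% in the library labelled GMTMM (37.3% to 40.9%). Pdgfc was the largest share in GMTMS-iCMs at 46.2% (44.4% to 48.0%), against 27.7% and 22.8%. The share of Pdgfa was 6.06%, 29.5% and 22.0% in the same order, and that of Pdgfd was 13.8%, 1.37% and 16.1%. These shares, and the ratios that follow, do not depend on how the libraries were scaled. The fold of Pdgfa between GMTMS-iCMs and MICFs was 11.2 times that of Pdgfb (9.30 to 13.5), 2.91 times that of Pdgfc (2.44 to 3.48) and 48.9 times that of Pdgfd (32.6 to 73.2). Between the library labelled GMTMM and MICFs, the fold of Pdgfa was 4.88 times that of Pdgfb (4.06 to 5.87).

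**Figure D2:**
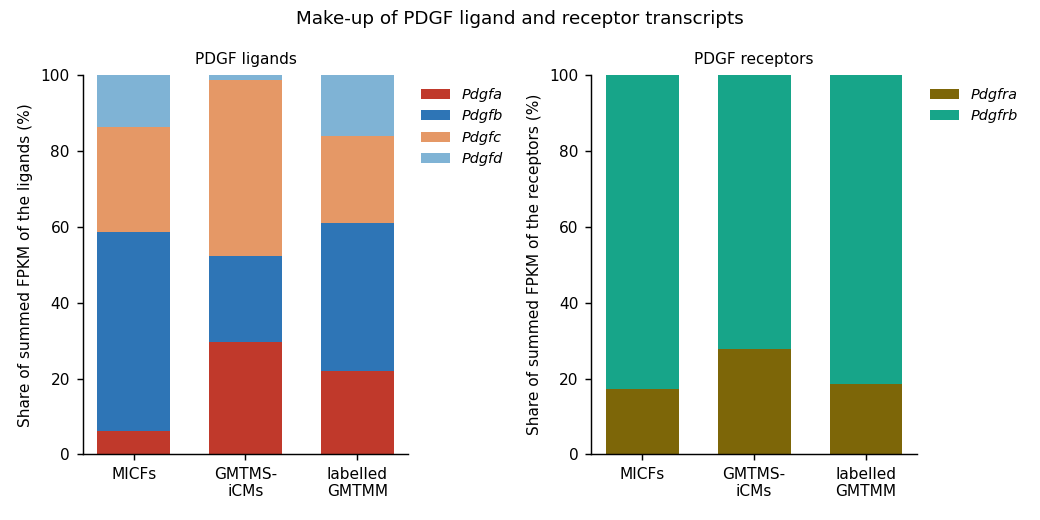
Share in percent of the summed FPKM of the 4 PDGF ligands and of the 2 PDGF receptors that each gene made up, 1 bar per library, from 0. Pdgfb is the largest ligand share in MICFs (52.5%) and Pdgfc in GMTMS-iCMs (46.2%), and Pdgfrb is the larger receptor share in each library.

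The 250 bases before the RefSeq starts of 3 ligands are shown because these ligands differed in direction. RefSeq sequences on GRCm38.p6 were at hand for 6 of the 10 genes in 7 windows, and none was at hand for Pdgfb, Pdgfrb, Thy1 or Fap. For Pdgfd, bases just after the RefSeq start were found in 0 of 3 GENCODE transcripts. Its window ends before the gene start printed above and does not adjoin it. Both Pdgfa windows lie inside the gene as printed above, downstream of its annotated 5′ end. The words searched, on both strands, were the GATA word AGATAA, the T-box word AGGTGT, the GC-box word CCCGCCC, the TATA word TATAAA, the CArG box bound by SRF, the partner of Myocd, and the MEF2 site. Capitals mark the matches, and each sequence reads 5′ to 3′ on the gene's strand. The windows are chr5:138994945-138995194 (minus strand) for the first Pdgfa start and chr5:138994282-138994531 (minus strand) for the second, chr3:81036166-81036415 (plus strand) for Pdgfc and chr9:6168236-6168485 (plus strand) for Pdgfd.
Pdgfa, first start: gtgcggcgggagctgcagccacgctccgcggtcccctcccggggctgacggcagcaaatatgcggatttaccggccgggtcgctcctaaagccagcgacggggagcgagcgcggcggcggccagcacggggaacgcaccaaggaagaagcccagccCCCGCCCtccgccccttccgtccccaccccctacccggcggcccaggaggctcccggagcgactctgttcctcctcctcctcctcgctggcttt
Pdgfa, second start: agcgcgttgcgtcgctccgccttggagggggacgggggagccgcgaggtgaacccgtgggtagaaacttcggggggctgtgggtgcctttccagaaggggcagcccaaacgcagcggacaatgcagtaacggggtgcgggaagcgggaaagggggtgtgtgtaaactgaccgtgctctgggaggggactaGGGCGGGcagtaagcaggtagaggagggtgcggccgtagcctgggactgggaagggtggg
Pdgfc: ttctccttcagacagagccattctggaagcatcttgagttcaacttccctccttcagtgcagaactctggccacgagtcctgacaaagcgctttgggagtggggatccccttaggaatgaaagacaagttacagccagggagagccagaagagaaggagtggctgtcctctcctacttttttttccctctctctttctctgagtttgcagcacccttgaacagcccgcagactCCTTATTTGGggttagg
Pdgfd: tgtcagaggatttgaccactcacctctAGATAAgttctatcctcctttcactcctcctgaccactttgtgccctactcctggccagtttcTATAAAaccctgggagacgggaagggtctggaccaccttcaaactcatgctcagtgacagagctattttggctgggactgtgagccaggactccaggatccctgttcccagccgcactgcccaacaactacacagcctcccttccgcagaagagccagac
The Pdgfa windows were rich in GC, at 72.4% and 66.4%, with 28 and 19 CpG, whereas Pdgfc and Pdgfd had 50.8% and 53.6% GC and 3 CpG each. Over 32851 windows the medians were 52.4% GC and 6 CpG. CCCGCCC, found in both Pdgfa windows on 1 strand or the other, was in 23.4% of all windows. The CArG box in Pdgfc, which reads as one on both strands, was in 1.47% of all windows. AGATAA and TATAAA in Pdgfd were in 9.99% and 12.4%, and the MEF2 site, in 2.92% of all, was in none of the 7 windows. No pair of these words overlapped in the sequences shown. A match describes the letters alone.

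Both receptors were lower in GMTMS-iCMs. Pdgfra (chr5:75152292-75198215, plus strand), the fibroblast receptor, had 2559 counts in MICFs, 318 in the GMTMS library and 3056 in the library labelled GMTMM, or 17.7, 3.42 and 26.1 FPKM. GMTMS-iCMs were the low library. The level was 5.19-fold lower than in MICFs (4.62 to 5.85), with a log2 difference of -2.20, and 7.64-fold lower than in the library labelled GMTMM (6.81 to 8.60). The log2 difference between the library labelled GMTMM and MICFs was 0.25. Exons of other genes lie opposite 6.21% of its exon bases, and those genes had at most 6 counts in a library.

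The study also measured Pdgfra by quantitative PCR, and its primers show which stretch of the transcript that assay reads. They were found in coding exons 22 and 23 of 23, at chr5:75192597-75194966 on GRCm38, plus strand, and give a product of 90 bases from the spliced transcript. Capitals mark the primer sites.
Pdgfra product: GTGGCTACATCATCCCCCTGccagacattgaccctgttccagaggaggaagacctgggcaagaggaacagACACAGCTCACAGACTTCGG
The window before the RefSeq start, chr5:75152001-75152250 (plus strand), is shown beside it because the gene fell in GMTMS-iCMs. Its capitals mark AGGTGT, read on the other strand, a word in 11.8% of all windows.
Pdgfra, before the start: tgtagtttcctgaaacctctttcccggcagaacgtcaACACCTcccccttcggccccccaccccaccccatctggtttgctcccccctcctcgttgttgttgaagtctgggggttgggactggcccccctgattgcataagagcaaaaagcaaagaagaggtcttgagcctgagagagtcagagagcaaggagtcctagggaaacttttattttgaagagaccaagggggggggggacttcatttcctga
It had 54.4% GC and 4 CpG. Bases just after this RefSeq start were found in 0 of 9 GENCODE transcripts of Pdgfra, and the window ends before the gene start printed above.

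Pdgfrb (chromosome 18, plus strand), the mural-cell receptor, had 6660 counts in MICFs, 453 in the GMTMS library and 7282 in the library labelled GMTMM, or 84.5, 8.90 and 113.8 FPKM. It had the highest FPKM of the 10 genes in MICFs and in the library labelled GMTMM, but not in GMTMS-iCMs, where Pdgfc, Pdgfa and Pdgfb lay above it. The level was 9.49-fold lower in GMTMS-iCMs than in MICFs (8.63 to 10.5), with a log2 difference of -3.54, the 72nd lowest of 15702 genes. Between the library labelled GMTMM and MICFs the log2 difference was -0.12, and its sign turned on 4 of 8 alternative scales, up to 0.43.

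Pdgfrb fell further than Pdgfra. Within a library, the ratio of Pdgfra to Pdgfrb FPKM was 0.210 in MICFs (0.201 to 0.220), 0.384 in GMTMS-iCMs (0.332 to 0.443) and 0.229 in the library labelled GMTMM (0.220 to 0.239). The ratio in GMTMS-iCMs was 1.83 times that in MICFs (1.57 to 2.12), beyond counting error. The summed FPKM of the receptors was 102.2, 12.3 and 139.9 in the 3 libraries, while the ligand sum was 68.7, 74.7 and 59.9.

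Of the other fibroblast surface genes, Thy1 and Ddr2 fell in GMTMS-iCMs and Fap stayed within the threshold. Thy1 (chr9:44043384-44048579, plus strand), a GPI-anchored glycoprotein also called CD90, was at 44.7 FPKM in MICFs, at 3.38 in GMTMS-iCMs and at 60.7 in the library labelled GMTMM. GMTMS-iCMs were again the low library. The level was 13.2-fold lower than in MICFs (10.8 to 16.5), with a log2 difference of -3.66, the 62nd lowest of all genes tested and the lowest of the 10 here. The log2 difference between the library labelled GMTMM and MICFs was -0.06, and its sign turned on 4 of 8 alternative scales, up to 0.44.

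Ddr2 (chr1:169972307-170110762, minus strand), a receptor tyrosine kinase that binds fibrillar collagen, was at 16.1 FPKM in MICFs, at 5.60 in GMTMS-iCMs and at 24.2 in the library labelled GMTMM. The order of the libraries was that of Thy1. It was 2.87-fold lower in GMTMS-iCMs than in MICFs (2.60 to 3.17), with a log2 difference of -1.51. Its difference between the library labelled GMTMM and MICFs was 0.31.

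Fap (chr2:62500943-62574075, minus strand), a surface protease of activated fibroblasts, had 258 counts in MICFs, 71 in the GMTMS library and 366 in the library labelled GMTMM, or 3.17, 1.35 and 5.53 FPKM. The order was the same once more. The FPKM ratio put GMTMS-iCMs 2.35-fold below MICFs (1.80 to 3.09). The log2 difference of -0.70 was within the threshold, and over 9 alternative scales it ran from -1.57 to -0.57, past the threshold with TMM, DESeq2 size factors and thinned counts. Against the library labelled GMTMM, the difference was -1.37, past the threshold.

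Cspg4 (chr9:56865033-56899870, plus strand), the NG2 proteoglycan of pericytes and glial progenitors, did not follow Pdgfrb. It was at 1.57 FPKM in MICFs, at 2.91 in GMTMS-iCMs and at 3.35 in the library labelled GMTMM. MICFs were the low library, and the iCM libraries did not differ beyond counting error in FPKM, at a fold of 1.15 (0.998 to 1.33), whereas by library totals GMTMS-iCMs were 1.29-fold lower, with an interval that starts at 1.12. The FPKM ratios over MICFs were 1.85 (1.57 to 2.19) and 2.14 (1.84 to 2.49), and the log2 differences of 0.76 and 0.78 were within the threshold. Over the alternatives these differences ran from 0.44 to 1.06 and from 0.76 to 1.09.

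**Figure D3:**
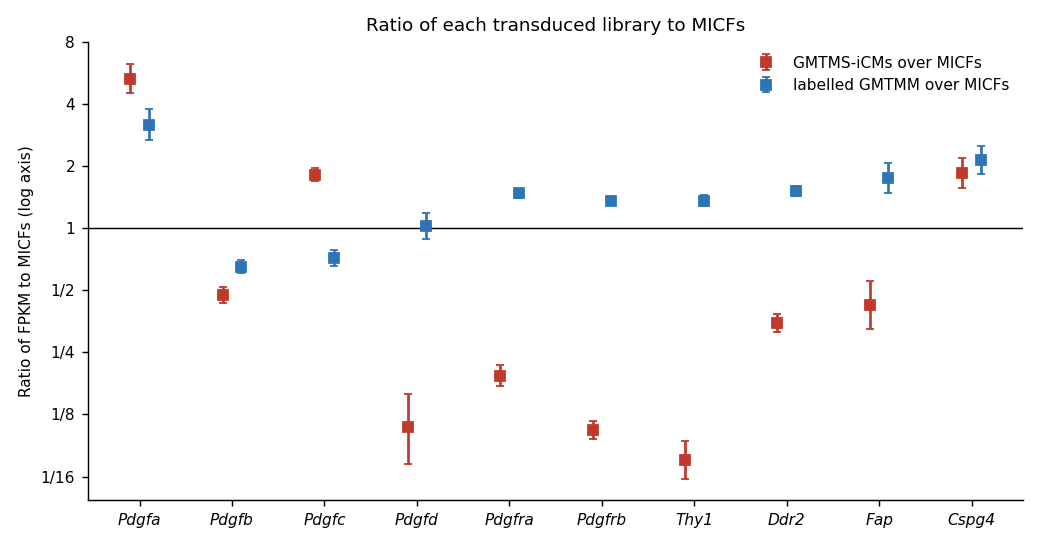
Ratio of FPKM of each gene (log axis), GMTMS-iCMs over MICFs and the library labelled GMTMM over MICFs, 1 point per ratio, with Clopper-Pearson 95% intervals of the counts. Thy1, Pdgfrb and Pdgfd lie farthest below a ratio of 1 in GMTMS-iCMs and Pdgfa farthest above, whereas 6 of 10 genes of the library labelled GMTMM lie between 1 and 2.

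Fibroblast and pericyte surface genes were set against each other as the design asks, with Pdgfra, Thy1, Ddr2 and Fap on one side and Pdgfrb and Cspg4 on the other. The median log2 difference between GMTMS-iCMs and MICFs was -1.86 for the fibroblast genes and -1.39 for the pericyte genes, a gap of -0.46 (-0.81 to -0.12, counting error). A median over the pericyte genes hides their split, since Pdgfrb was at -3.54 and Cspg4 at 0.76. The fold of Cspg4 was 17.6 times that of Pdgfrb (14.6 to 21.2). Relative to Pdgfrb, the fold of Ddr2 was 3.31 times as high (2.88 to 3.79), that of Fap 4.05 times (3.06 to 5.35) and that of Thy1 0.717 times (0.571 to 0.901). Each fibroblast gene except Thy1 thus kept more of its MICF level than Pdgfrb did, and Thy1 kept less. Relative to Cspg4, all 4 fibroblast genes kept less, from 4.35 times less for Fap (3.19 to 5.92) to 24.5 times for Thy1 (18.9 to 31.9).

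In the library labelled GMTMM, the medians against MICFs were 0.28 for the fibroblast genes and 0.33 for the pericyte genes, a gap of -0.05 (-0.26 to 0.16) that counting error covers. Between the iCM libraries the medians were -2.13 and -1.72, a gap of -0.41 (-0.74 to -0.08). Of the 7 further pericyte markers, 6 were lower in the GMTMS-iCMs than in MICFs (background 8.69%, list median -2.33), and none was at 0 in any library. The largest differences were those of Kcnj8 and Abcc9, subunits of a potassium channel, at -2.96 and -2.59, of Notch3, a Notch receptor of mural cells, at -2.92, and of Ndufa4l2 at -2.33. All 7 fibroblast markers were lower too, with a median of -3.04, led by Col3a1 at -3.82, Tcf21 at -3.37, Dcn at -3.25 and Col1a2 at -3.04. Against MICFs, the library labelled GMTMM had 2 of 7 pericyte markers higher (Rgs5 and Vtn, median 0.62) and 1 of 7 fibroblast markers higher (Postn, median 0.54). The background there was 6.43% of genes higher. By FPKM ratio all 7 fibroblast markers were higher there, from 1.14-fold for Tcf21 to 2.92-fold for Postn. Col1a1, Lum and Col1a2 were at 2.40, 2.40 and 2.31. The direction of Tcf21 depended on the scale: its quantile-normalized log2 difference was -0.17, with 823 counts there and 890 in MICFs. All 7 pericyte markers were higher by FPKM ratio too, from 1.56-fold for Ndufa4l2 to 6.65-fold for Vtn. Of 5 smooth muscle markers, Myh11 and Cnn1 were higher in each iCM library than in MICFs, and none was lower. The background was 9.00% higher for GMTMS-iCMs and 6.43% higher for the library labelled GMTMM.

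**Figure D4:**
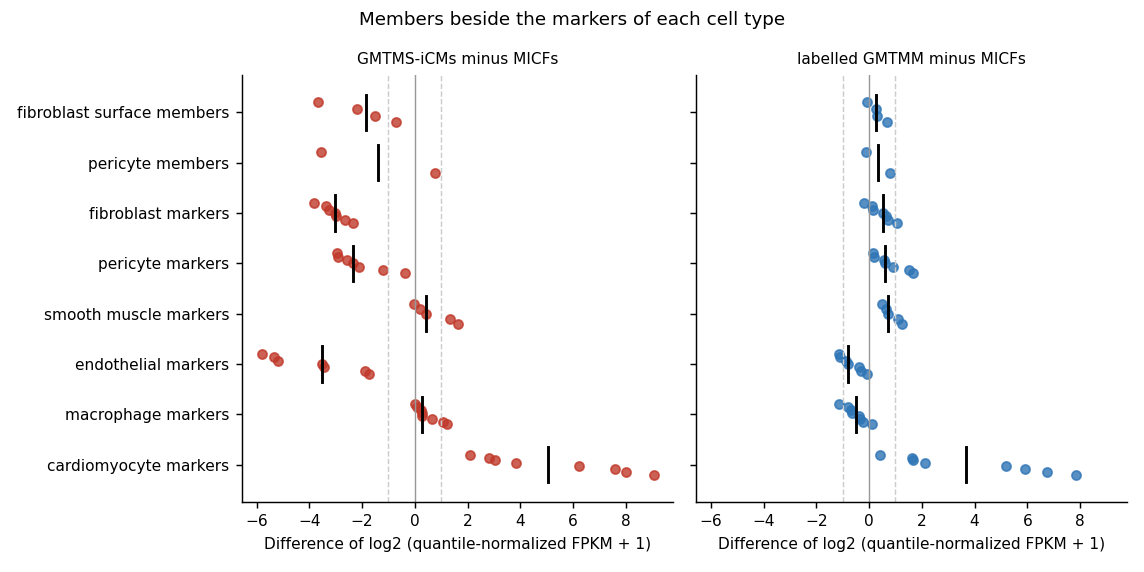
Difference of log2 (quantile-normalized FPKM + 1) of each fibroblast and pericyte surface gene described here and of each gene of the cell type marker lists, GMTMS-iCMs minus MICFs and the library labelled GMTMM minus MICFs, 1 point per gene, with the list median as a vertical bar and dashed lines at differences of -1 and 1. Fibroblast, pericyte and endothelial markers lie below 0 in GMTMS-iCMs, and cardiomyocyte markers lie above 0 in both iCM libraries.

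Other genes of the pathway were counted from lists chosen with earlier results of these data known. Of 7 genes for ligand processing and co-receptors, 1 was higher and 2 were lower when GMTMS-iCMs were set against MICFs. The list median was -0.26, and the background was 9.00% higher and 8.69% lower. Furin, the protease that cleaves PDGF-A and PDGF-B inside the cell, was 3.02-fold higher (2.87 to 3.18). Plat, the tissue plasminogen activator that activates PDGF-C, was 6.38-fold lower (5.30 to 7.75), and Sparc, a matrix protein that binds PDGF-B, was 9.14-fold lower (8.82 to 9.47). Nrp1, a co-receptor, was the 1 gene of the 7 that was lower in the library labelled GMTMM (background 3.53% lower and 6.43% higher). Its log2 difference was -1.23, and the list median was 0.26. Nrp1 was at -0.87 without quantile normalization, within the threshold. Plat was at 0.96 there, just within the threshold.

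Against the background of 9.00% of genes higher and 8.69% lower, of 16 adaptors and downstream kinases, 2 were higher, 1 was lower and 13 were neither in GMTMS-iCMs, with a median of 0.19. Src, a kinase recruited by active PDGF receptors, was 4.87-fold higher (4.35 to 5.46) and Stat3, a transcription factor, was 3.41-fold higher (3.26 to 3.57). Plcg1, the phospholipase that docks on the receptors, was 3.76-fold lower (3.30 to 4.30). Src and Stat3 were also the 2 genes called in the library labelled GMTMM (background 6.43% higher and 3.53% lower). Their log2 differences were 1.51 and 1.31, and the list median was -0.15.

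Of 8 immediate early genes, which growth factors induce along with other stimuli, 3 were called lower in GMTMS-iCMs and none was called higher. Those lower were Egr1 at -2.15, Fos at -1.89 and Ier2 at -1.21. The list median was -0.35, and the background was 8.69% lower and 9.00% higher. In the library labelled GMTMM, Fosl1 at 2.32 and Myc at 1.85 were higher, and Fos at -1.17 and Ier2 at -1.01 were lower. The median was -0.04, and the background there was 6.43% higher and 3.53% lower. Without quantile normalization, Fos and Ier2 were at -0.43 and -0.38 there, within the threshold, and Ier2 in GMTMS-iCMs was at -0.51. By FPKM ratio, Junb and Ier3 were 2.13-fold (2.08 to 2.18) and 2.31-fold (2.21 to 2.42) higher in GMTMS-iCMs than in MICFs. Their quantile-normalized differences were 0.25 and 0.41. Junb was also 2.46-fold higher (2.40 to 2.52) in the library labelled GMTMM, at a difference of 0.73. Cells of all libraries were dissociated, per the labels, and the part of dissociation in these levels was not tested.

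Other mesenchymal surface genes were split. Of 12, 4 were higher and 5 were lower when GMTMS-iCMs were set against MICFs, and the list median was -0.49. The background was 9.00% higher and 8.69% lower. Cd44, the hyaluronan receptor, was 13.2-fold higher (12.4 to 14.1), and Alcam, an adhesion molecule, was 9.15-fold higher (7.85 to 10.7). Pdpn and Vcam1 were higher as well, at log2 differences of 1.81 and 1.18. Mcam, an adhesion molecule of mural and endothelial cells, was 21.5-fold lower (18.6 to 25.0), Cd248, or endosialin, was 8.65-fold lower (7.12 to 10.6), and Ly6a and Eng were at -2.66 and -2.46. In the library labelled GMTMM, Vcam1, Cd44 and Pdpn were higher, at 2.55, 2.47 and 1.44, and none of the 12 was lower. The background there was 6.43% higher and 3.53% lower. Of 4 platelet markers, listed because platelets store PDGF, 2 had enough counts. Pf4 was higher in GMTMS-iCMs than in MICFs at a log2 difference of 1.45, and Itga2b, with 27 counts in MICFs and 15 in GMTMS-iCMs, was at -0.02. The other 2 had at most 7 counts in a library, and which cells gave the Pf4 RNA was not tested.

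The scaling of libraries sets the size of these folds. The deposited FPKM carry size factors of 1.26, 0.811 and 1.02 for MICFs, the GMTMS-iCMs and the library labelled GMTMM. By library totals instead, Pdgfa was 3.82-fold higher in GMTMS-iCMs than in MICFs, Pdgfra 7.21-fold lower, Pdgfrb 13.2-fold lower, Thy1 18.4-fold lower and Pdgfd 12.8-fold lower. The folds of Pdgfc and Cspg4 came to 1.31 and 1.34 in the same way. The 7 genes called between GMTMS-iCMs and MICFs passed the threshold with the same sign on all 9 alternative scales.

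**Figure D5:**
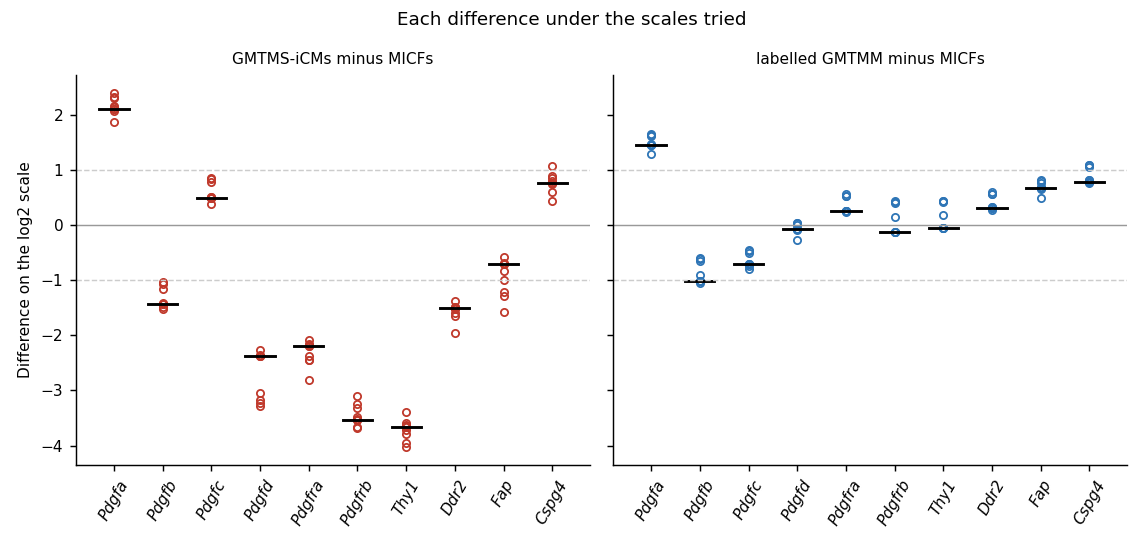
Log2 difference of each gene from MICFs, GMTMS-iCMs on the left and the library labelled GMTMM on the right, with a bar for the scale used here, 1 open point per alternative scale and dashed lines at -1 and 1. Pdgfra, Pdgfrb, Thy1 and Pdgfd in GMTMS-iCMs lie below -2 throughout, whereas Pdgfd, Pdgfrb and Thy1 in the library labelled GMTMM lie on either side of 0.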

How the data were processed

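The authors deposited, for 3 libraries, raw counts per gene without normalization and FPKM per gene. The submitters' processing notes name HISAT2 2.0.5 and the build mm9, whereas the gene coordinates in the files are those of GRCm38 (98.3% of 54409 matched identifiers and 10 of 10 genes described here had the coordinates of GENCODE M21). How reads were counted and whether strand was used are not given in the sources used here. The library size behind the deposited FPKM was the product of the DESeq2 size factor and the geometric mean of all totals. The MICF column carries another abbreviation and was matched because the other columns name the cocktails.

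From the FPKM, a quantile normalization over the 3 libraries was computed with ties averaged, followed by log2 with a pseudocount of 1. Genes with at least 10 counts in a library were kept, and a difference over 1 was called. Intervals on folds and Poisson levels come from the counts. Ratios within a library and shares have normal intervals on the log or logit scale. The genes and lists were chosen with earlier results of these data known. Every gene of the set was named, and list genes past the threshold could be named, the largest first, up to 4 in each direction. Itga2b was named after its values were seen, to complete its list. Differences were tested on simulated data: of 200 genes changed 4-fold among 54532, 90.5% were recovered for GMTMS-iCMs against MICFs. Of the unchanged genes, 0.08% were called. Changes near the threshold were not simulated, and with 1 library per condition variation between animals could not be estimated. Promoter windows and primers were matched on RefSeq and GENCODE sequences. The alternatives were log2 before or no quantile normalization, a pseudocount of 0.1, an FPKM minimum of 1, protein-coding genes, TMM log2 CPM, DESeq2 size factors, thinned counts, a difference over 2 and, chosen after seeing the data, quantile normalization without the library labelled GMTMM. Scripts used edgeR 4.0.16 and DESeq2 1.42.0 in R 4.3.3, and SciPy 1.17.1, pandas 2.3.3, numpy 2.4.6 and matplotlib 3.10.9 in Python 3.11.15.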

Additional observations from a re-analysis of the deposited data

How the results depend on the processing

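No paired analysis was possible because there is a single library per condition, and for the same reason no replicate could be left out. Depth limits Pdgfd most, with 30 counts in GMTMS-iCMs. Over the scales, 174 of the 250 values of the 10 genes moved by less than counting error and no called value changed sign. The 12 that changed sign were uncalled values of Pdgfd, Pdgfrb and Thy1 between the library labelled GMTMM and MICFs, and of Cspg4 between the iCM libraries. Thinning shifted the median of all genes by -0.36 (GMTMS against MICFs) and by -0.18 in the other comparisons. Without the library labelled GMTMM, the count of genes described here stayed at 1 higher and 6 lower. The 6 lower became 7 with TMM, DESeq2 size factors and thinning, as Fap passed at -1.30, -1.22 and -1.57, and 4 with a difference over 2.

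Among the 10 genes, the count higher in GMTMS-iCMs than in MICFs became 2 with a pseudocount of 0.1 (Cspg4 at 1.06). Between the library labelled GMTMM and MICFs, the count higher became 2 with a pseudocount of 0.1, TMM or DESeq2 size factors (Cspg4 again) and 0 with a difference over 2, and the count lower became 0 without quantile normalization, with TMM, DESeq2 size factors or thinning, and with a difference over 2. Between the iCM libraries the count higher became 0 with a difference over 2.

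Over all genes, the count higher in GMTMS-iCMs than in MICFs (1413) became 2300 with a pseudocount of 0.1, 2321 with TMM, 2572 with DESeq2 size factors and 444 with a difference over 2, and the count lower (1364) became 2724, 3274, 3148 and 458, and 3765 with thinning. For the library labelled GMTMM against MICFs, the same settings gave 1947, 2171, 2286 and 312 higher (1010) and 1677, 1728, 1727 and 44 lower (554), and 1899 lower with thinning. For GMTMS-iCMs against the library labelled GMTMM they gave 1915, 1709, 1948 and 20 higher (959) and 2477, 3001, 2971 and 497 lower (1424), and 2452 lower with thinning. Among the list genes, a difference over 2 left 10, 8 and 0 higher in the 3 comparisons. For the library labelled GMTMM against MICFs, TMM and DESeq2 size factors gave 32 higher each, and the count lower (6) was 0 without quantile normalization, 1 with TMM, 1 with DESeq2 size factors, 3 with thinning and 0 with a difference over 2. As counts, not per length, the ratio of Pdgfra to Pdgfrb was 0.384, 0.702 and 0.420 in MICFs, the GMTMS-iCMs and the library labelled GMTMM, and on the TMM scale it was 0.384, 0.703 and 0.420. The cause of the moved counts was not tested.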
